A study of Mus musculus with 22 samples.

Results

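The uroplakins are the membrane proteins of the bladder's luminal surface, and Snx31 encodes a sorting nexin that binds them. The 6 genes described here are Upk1a, Upk1b, Upk2, Upk3a, Upk3b and Snx31. They were found through the RefSeq accession that the array files give for each probe, matched to the mouse symbol. This gave 7 probes, 2 of them for Upk1b and 1 for each other gene, out of 22911 genes with a symbol on the array. Of all genes, 17404 were tested, these 6 among them: the scanner software had to call the probe well above background for 2 or more of the 22 arrays. Snx31 passed that filter through the normal arrays alone, so its difference from normal follows in part from the filter and is not counted with the others.

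Each sample is total RNA of mouse bladder read on 1 one-colour Agilent array, and all mice were 8 months old. The 3 normal arrays came from wild-type mice given neither tamoxifen nor BBN, a nitrosamine that causes bladder cancer in mice. The other 19 arrays came from mice that drank BBN for 24 weeks. Krt5-Cre (2 arrays) had the genotype Krt5-CreERT2; LSL-RFP, and Upk2-Cre (2 arrays) had Upk2-CreERT2; LSL-RFP, both with tamoxifen. Krt5-Cre R270H (3 arrays) and Krt5-Cre R172H (4 arrays) carried the Krt5-driven Cre and reporter with 1 mutant Trp53 allele, R270H or R172H, and received tamoxifen. Upk2-Cre R270H (2 arrays) and Upk2-Cre R172H (3 arrays) carried the same alleles with the Upk2-driven Cre, and received tamoxifen. Trp53 het (3 arrays) is labelled Trp53R270H/+ with neither Cre nor tamoxifen, while its titles name 1 lost allele. Krt5 is expressed in basal cells and Upk2 in luminal cells, and tamoxifen-inducible Cre acts only in cells that use that promoter and in their descendants, so a mutant bladder also holds cells without the mutation. The tissue label of the normal samples names urothelium and that of the BBN samples a tumour, while the extraction protocol names whole bladders. Nothing in the labels says that the samples of a group came from separate litters or days, so p-values measure the spread between these samples.

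In normal bladder the umbrella cells that line the lumen carry rigid plaques of uroplakin on their apical membrane, a barrier against urine. Upk1a and Upk1b are tetraspanins, and the plaques are built of pairs of a tetraspanin with a partner that spans the membrane once. Upk1a pairs with Upk2, and Upk1b pairs with Upk3a or Upk3b. Plaques reach the surface in fusiform vesicles, and Snx31 lies on the multivesicular bodies through which internalised uroplakin passes to degradation. Upk3b and Upk1b are also expressed in mesothelium, the lining of the abdominal cavity.

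To let the start regions of these genes be compared, the 250 bases before the RefSeq start site are shown for the members that the RefSeq table (GRCm38.p6) holds, which were Upk1a, Upk3a and Upk3b. Each is written 5′ to 3′ on the strand of its gene, for Upk1a at chr7:30612735-30612984 on the minus strand, for Upk3a at chr15:85016891-85017140 on the plus strand and for Upk3b at chr5:136038246-136038495 on the plus strand. Capitals mark every match, on either strand, to 6 short motifs: TATAAA, known as the TATA box; GATAA for GATA factors; AGGAAG for ETS factors; AGGTCA for nuclear receptors; CACCC for Klf factors; and AACCGG for grainyhead factors. No motif searched is part of another.
Upk1a: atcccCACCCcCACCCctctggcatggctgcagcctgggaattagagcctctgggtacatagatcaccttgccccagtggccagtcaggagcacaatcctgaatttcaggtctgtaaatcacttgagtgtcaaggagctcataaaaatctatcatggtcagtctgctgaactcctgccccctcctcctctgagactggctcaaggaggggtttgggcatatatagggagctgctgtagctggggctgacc
Upk3a: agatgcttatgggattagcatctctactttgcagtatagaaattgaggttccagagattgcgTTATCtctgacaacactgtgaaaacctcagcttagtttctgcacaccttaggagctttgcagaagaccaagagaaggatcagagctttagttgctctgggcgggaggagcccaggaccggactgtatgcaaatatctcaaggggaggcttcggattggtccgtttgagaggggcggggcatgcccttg
Upk3b: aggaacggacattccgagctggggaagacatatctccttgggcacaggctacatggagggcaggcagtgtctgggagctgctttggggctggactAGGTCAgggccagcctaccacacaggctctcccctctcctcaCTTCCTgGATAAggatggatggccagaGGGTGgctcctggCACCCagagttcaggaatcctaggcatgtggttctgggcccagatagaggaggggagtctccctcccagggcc
None of the 6 motifs was found in all 3 windows, and CACCC was in those of Upk1a and Upk3b. The Upk1a window held 2 matches to CACCC, the Upk3a window 1 match to GATAA on the opposite strand, and the Upk3b window matches to the nuclear receptor, ETS, GATA and Klf motifs. Such matches are common: of the 250-base windows of 32851 promoters in the table, 52.0% held CACCC, 29.5% AGGAAG, 22.6% GATAA, 14.0% AGGTCA, 12.4% TATAAA and 5.62% AACCGG. A match is a string of letters and not a shown binding site, and no match says only that the letters are missing from this window.

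Each level is the log2 of a probe's signal minus that of the array's own 75th percentile, so that 0 marks that percentile and a step of 1 is a doubling. Levels of different probes are not set against each other. Scanner A read slides 1 and 2, with 42.4% to 57.2% of spots well above background over 11 BBN arrays, and scanner B read slides 3 and 4, with 56.3% to 63.2% over 8 BBN and 3 normal arrays. Slide 4 held the 3 normal arrays and no other, so slide and normal tissue cannot be told apart. The labelled sex was at odds with Xist and Y-linked transcripts on 11 arrays, namely all 3 normal arrays and 8 of the 19 BBN arrays. Upk2-Cre replicates 1 and 2 share a description code, as do Trp53 het replicates 1 and 2. In both pairs replicate 1 was read by scanner B and replicate 2 by scanner A. Whether the arrays of a pair came from the same animal was not tested. Values without the 8 doubtful BBN arrays, or with code-sharing arrays averaged, are given where a call depends on them. The 3 normal arrays, whose sex labels are doubtful as well, were not left out as a group. These values therefore cannot check the label of the normal arrays.

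All 5 uroplakins were lower in BBN bladders than in normal bladder, and no BBN array reached the lowest normal array for any of them. The share of all genes that separate in this way was not counted. The log2 difference was -9.02 for Upk3a and between -5.81 and -4.37 for Upk1a, Upk1b, Upk2 and Upk3b. At a Benjamini-Hochberg adjusted limma p of 0.05, 19% of all 17404 genes tested were lower and 23.7% higher, and the median difference was 0.13. The median over the 5 uroplakins was -5.59. Relative to 10 genes of epithelial cells in general, the same comparison called 4250 genes lower and 3073 higher, against 3313 and 4119 on the usual scale. These are bulk samples, in which fewer cells of a type and less RNA per cell cannot be told apart.

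**Figure D1:**
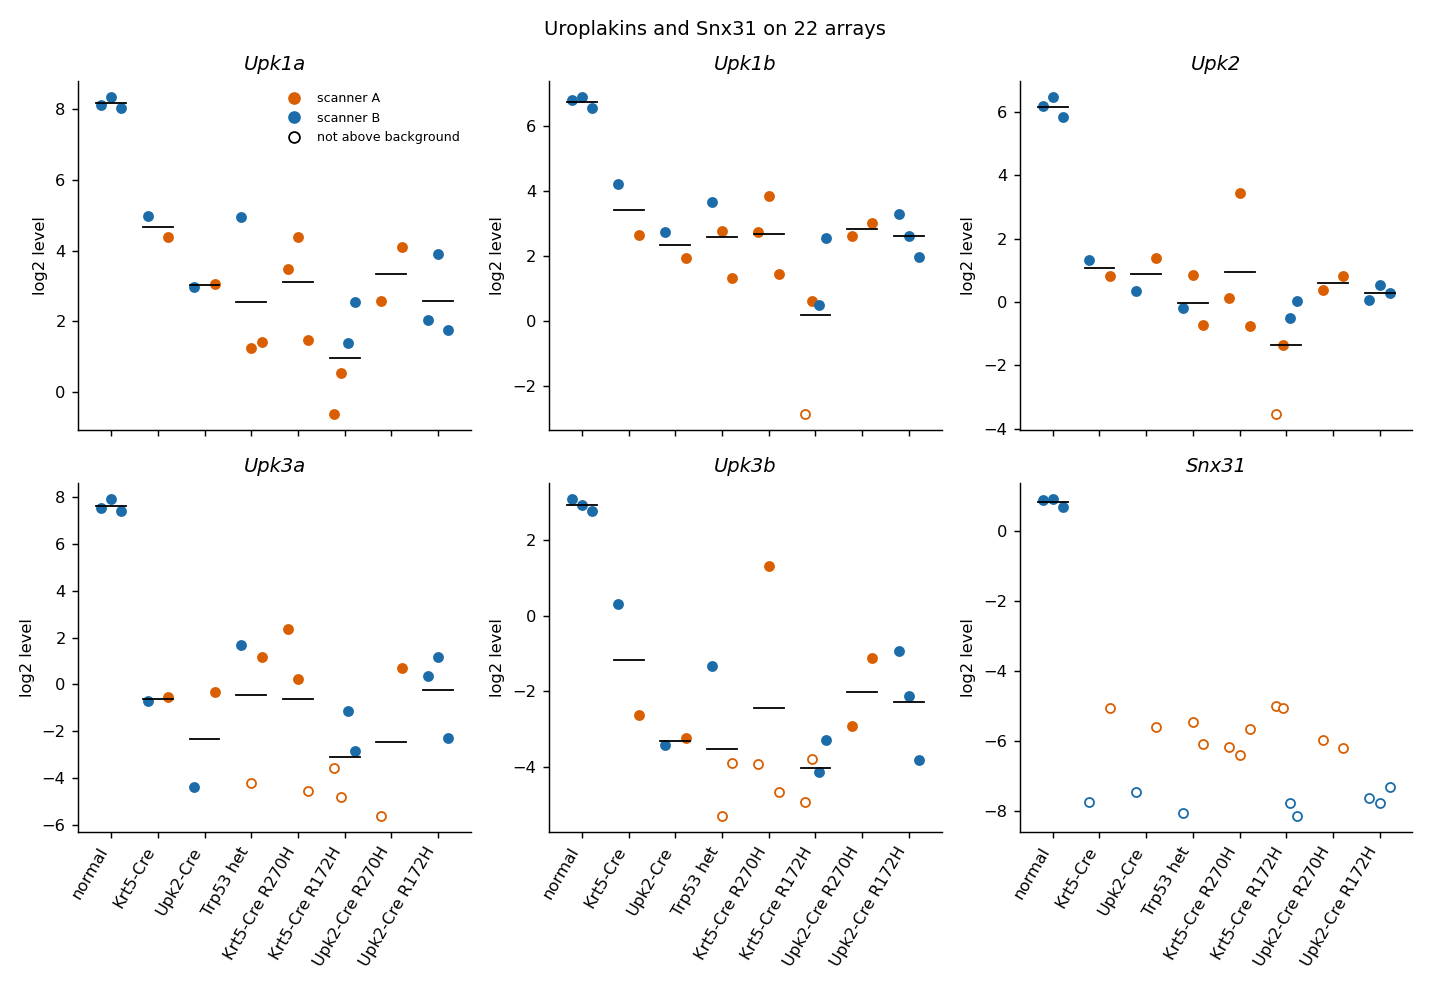
Log2 level of each gene (vertical axis, 0 at the 75th percentile of the array) on the 22 arrays by group, coloured by scanner; bars are group means and open circles are arrays on which the probe was not well above background. The 3 normal arrays lie above all 19 BBN arrays in each uroplakin panel. How many of all genes separate in this way was not counted. Every BBN point of Snx31 is open, and its gap from normal follows in part from the filter.

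Upk1a, the tetraspanin that carries Upk2, had normal levels of 8.12, 8.34 and 8.01. Among BBN groups without an activated mutation it was at 4.97 and 4.38 in Krt5-Cre, at 2.98 and 3.06 in Upk2-Cre, and at 4.94, 1.26 and 1.42 in Trp53 het. With an activated mutation it was at 3.49, 4.38 and 1.47 in Krt5-Cre R270H, at -0.62, 0.55, 1.38 and 2.54 in Krt5-Cre R172H, at 2.56 and 4.10 in Upk2-Cre R270H, and at 2.05, 3.89 and 1.75 in Upk2-Cre R172H. Krt5-Cre had the highest mean of the BBN groups, but Trp53 het replicate 1, at 4.94, lay within its range. Krt5-Cre R172H replicates 1 and 2 had the lowest values of all. Upk1a stayed well above background on all 19 BBN arrays, at a median of 2.07% of the normal mean (0.228% to 10.9%). The difference was -5.27 (SE 0.735), a 38.7-fold fall with a 95% interval of 13.2 to 114-fold, and the adjusted p from limma was 4.16e-05.

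Upk1b, the tetraspanin partner of Upk3a and Upk3b, had normal levels of 6.81, 6.90 and 6.55. In BBN groups without an activated mutation the levels were 4.21 and 2.65 in Krt5-Cre, 2.74 and 1.95 in Upk2-Cre, and 3.65, 2.77 and 1.34 in Trp53 het. In the mutant groups they were 2.73, 3.84 and 1.46 in Krt5-Cre R270H, -2.85, 0.61, 0.50 and 2.56 in Krt5-Cre R172H, 2.63 and 3.02 in Upk2-Cre R270H, and 3.28, 2.61 and 1.98 in Upk2-Cre R172H. The lowest value, in Krt5-Cre R172H replicate 1, was not well above background, and the 7 BBN groups overlapped along their order of means. Upk1b kept the largest share of its normal level, with a median of 5.75% (0.129% to 17.1%). Its difference was -4.37 (SE 0.747), a 20.6-fold fall with a 95% interval of 6.92 to 61.6-fold and an adjusted p of 0.000258. A second, dimmer Upk1b probe gave -4.58 and followed the first with a Pearson correlation of 0.995 over the 22 arrays.

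Upk2, the single-pass partner of Upk1a and the gene whose promoter drives one of the Cre lines, had normal levels of 6.18, 6.47 and 5.83. Its levels were 1.34 and 0.82 in Krt5-Cre, 0.35 and 1.39 in Upk2-Cre, and -0.20, 0.86 and -0.73 in Trp53 het. They were 0.12, 3.44 and -0.77 in Krt5-Cre R270H, -3.53, -1.35, -0.52 and 0.03 in Krt5-Cre R172H, 0.38 and 0.82 in Upk2-Cre R270H, and 0.06, 0.55 and 0.29 in Upk2-Cre R172H. Krt5-Cre R270H replicate 2 stood above every other BBN array, and Krt5-Cre R172H replicate 1 was not well above background. The 3 groups with an Upk2-driven Cre spanned 0.06 to 1.39, inside the range of the Krt5-driven groups. The difference was -5.81 (SE 0.687), a 56.2-fold fall with a 95% interval of 20.5 to 154-fold and an adjusted p of 8.68e-06.

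Upk3a, which pairs with Upk1b and has a longer cytoplasmic tail than Upk2, had normal levels of 7.52, 7.90 and 7.41. It was at -0.72 and -0.54 in Krt5-Cre, at -4.36 and -0.32 in Upk2-Cre, and at 1.68, -4.20 and 1.16 in Trp53 het. It was at 2.37, 0.24 and -4.54 in Krt5-Cre R270H, at -3.56, -4.80, -1.15 and -2.82 in Krt5-Cre R172H, at -5.62 and 0.68 in Upk2-Cre R270H, and at 0.37, 1.17 and -2.30 in Upk2-Cre R172H. It was not well above background on 5 of the 19 BBN arrays in 4 groups, all of them read by scanner A. Replicates of the same group lay far apart, as in Upk2-Cre R270H. Its SD over the BBN arrays was 2.50, against a median of 0.51 over 14646 genes measured on 10 or more of them. The difference was -9.02 (SE 1.44), a 519-fold fall with a 95% interval of 63.2 to 4263-fold and an adjusted p of 0.000142. With values below background raised to the lowest level well above background on their array, the difference was -8.67.

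Upk3b, the other partner of Upk1b, had normal levels of 3.07, 2.93 and 2.76. Levels were 0.30 and -2.61 in Krt5-Cre, -3.40 and -3.23 in Upk2-Cre, and -1.34, -5.28 and -3.90 in Trp53 het. They were -3.92, 1.29 and -4.65 in Krt5-Cre R270H, -4.91, -3.77, -4.11 and -3.28 in Krt5-Cre R172H, -2.91 and -1.13 in Upk2-Cre R270H, and -0.93, -2.11 and -3.79 in Upk2-Cre R172H. The probe was not well above background on 6 of the 19 BBN arrays, all read by scanner A. Krt5-Cre R270H replicate 2, the array with the highest Upk2, also had the highest Upk3b, at 32.5% of the normal mean, against a median of 1.36%. The difference was -5.59 (SE 0.980), a 48.3-fold fall with a 95% interval of 11.5 to 203-fold and an adjusted p of 0.000314.

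Snx31, the sorting nexin, had levels of 0.89, 0.90 and 0.68 on the normal arrays and was not well above background on any of the 19 BBN arrays. Only a bound on its fall can be given: the normal mean is set against, on each BBN array, its own signal or, where higher, the dimmest signal that still counted as well above background. By this measure Snx31 was at least 34.5-fold lower in BBN bladders, which is given as a description with no test. Between groups the bound ran from at least 24.0-fold in Krt5-Cre R270H to at least 68.3-fold in Upk2-Cre R172H. It was at least 79.6-fold over the 8 BBN arrays of scanner B, whose lowest measurable signal is dimmer. The bounds follow the arrays' limits, so they give no order of Snx31 among BBN groups.

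Taken group by group, the 5 uroplakins were each called lower than normal in 6 of the 7 BBN groups. In Krt5-Cre 4 of 5 were called, and Upk3b was at -4.08 with an adjusted p of 0.0590. The share of all genes called lower was 6.95% in Krt5-Cre, 12.8% in Upk2-Cre, 13.5% in Trp53 het, 13.0% in Krt5-Cre R270H, 14.6% in Krt5-Cre R172H, 9.08% in Upk2-Cre R270H and 13.0% in Upk2-Cre R172H. The differences of Upk1a ran from -3.48 in Krt5-Cre to -7.20 in Krt5-Cre R172H, and those of Upk2 from -5.08 to -7.50 in the same groups. For Upk3a they ran from -7.86 in Upk2-Cre R172H to -10.69 in Krt5-Cre R172H. These comparisons share the 3 normal arrays. With scanner as a block, Krt5-Cre lost Upk1a (adjusted p 0.0739) and Upk1b (0.0985), Upk2-Cre R270H lost Upk1a (0.0730), Upk1b (0.230) and Upk3b (0.202), and Krt5-Cre R270H lost Upk1b (0.154) and Upk3b (0.113). All of these differences stayed negative. Leaving out 1 array of a 2-array group had the same kind of effect: without Krt5-Cre replicate 2, or without Upk2-Cre R270H replicate 1, Upk2 was the 1 uroplakin of 5 still called in that group. Without Krt5-Cre replicate 1 that group lost Upk1a, Upk1b and Upk3a, and without any 1 normal array it lost Upk1a and Upk1b. Upk1b in Krt5-Cre lies at the threshold (adjusted p 0.0453) and was also lost with code-sharing arrays averaged (0.0540), without either Upk2-Cre array and without several arrays of other groups. Upk2-Cre R270H lost Upk3b without any 1 normal array, Upk1b without normal replicate 2, and both without its own replicate 2. Upk2-Cre lost Upk3a without its replicate 1 and Upk1b without its replicate 2, or with these arrays, which share a code, averaged. Without the 8 BBN arrays whose sex markers went against the label, Upk3b was no longer called in Upk2-Cre, Upk2-Cre R270H and Upk2-Cre R172H (adjusted p 0.0918, 0.0794 and 0.0855), nor Upk3a in Upk2-Cre R172H (0.0598), nor Upk1a in Krt5-Cre (0.0554).

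**Figure D2:**
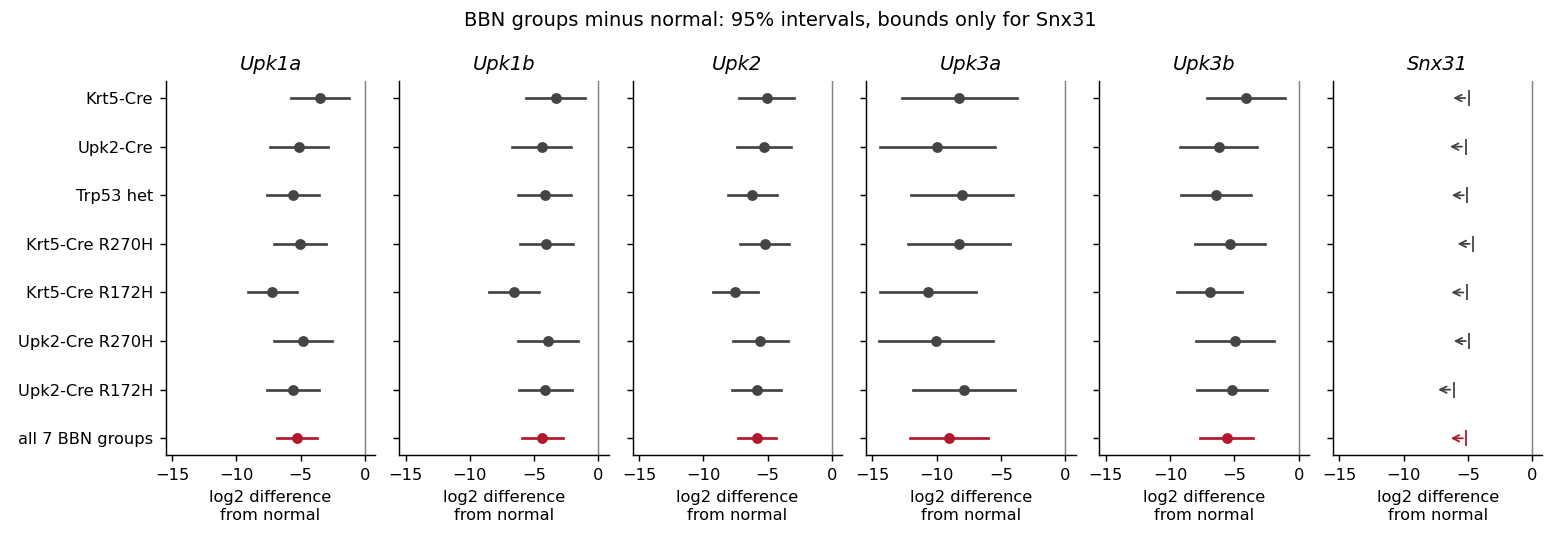
Log2 difference from normal (horizontal axis) for each of the 7 BBN groups and for all of them together, with 95% intervals; for Snx31 the tick is the bound and the arrow points to lower values. All uroplakin intervals lie below 0, and those of Krt5-Cre R172H are centred lowest, down to -10.69 for Upk3a.

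The comparison with normal was repeated on arrays that bear on it. On scanner B alone, which read all normal arrays and 8 BBN arrays, the differences were -4.68 for Upk1a, -3.80 for Upk1b, -5.85 for Upk2, -8.74 for Upk3a and -5.00 for Upk3b, with adjusted p from 9.34e-06 to 0.000718. Without the 8 BBN arrays whose sex markers went against their label, the differences lay between -3.94 (Upk1b) and -9.55 (Upk3a), with adjusted p from 0.000305 to 0.00726. That fit has no Krt5-Cre R172H array. Averaging the arrays that share a code left all 5 called.

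The 5 uroplakins did not all fall by the same amount. For each of 10 pairs, the difference between the 2 log2 levels was taken on every array and compared between the 19 BBN and 3 normal arrays with an exact two-sided permutation test over 1540 splits. Snx31 was left out because it has no measured level in BBN bladders. Upk3a fell further than Upk1b by 4.49 (exact permutation p = 0.00390, adjusted over the pairs 0.0325), and this held on all 19 BBN arrays. It fell further than Upk1a by 3.54 (p = 0.00649 by the exact permutation test, adjusted 0.0325), on 18 of 19 arrays. Upk2 fell further than Upk1b by 1.42 (exact permutation p = 0.0149, adjusted 0.0498), on 16 of 19 arrays. For the other 7 pairs the adjusted p was above 0.05, from 0.0568 for Upk3a with Upk3b to 0.775 for Upk1a and Upk2 with Upk3b.

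Of these 3 calls, that of Upk1b with Upk2 was lost when values below background were raised to the array's limit (adjusted p 0.0633 by the exact permutation test), where Upk3a with Upk3b was called instead (0.0390). The calls lie near the threshold of 0.05. Leaving out any 1 of the 3 normal arrays, Krt5-Cre replicate 1, Upk2-Cre replicate 1, Trp53 het replicate 2, or Krt5-Cre R172H replicate 2 or 4 left 0 of 10 pairs called. The excess fall of Upk3a over Upk1b stayed between 4.23 and 4.68 with each array left out, and that over Upk1a between 3.32 and 3.76. Among the partners that share plaques, Upk1a and Upk2 changed by amounts 0.48 apart (exact permutation p = 0.452, adjusted 0.565). Upk1b and Upk3b were 1.19 apart (exact permutation p = 0.162, adjusted 0.231). The partners Upk1b and Upk3a, given above, were the farthest apart of the 10 pairs, at 4.49.

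Among the 7 BBN groups themselves, 0 of the 5 uroplakins were called by the limma F test for any difference, where 0% of all genes were called and 1095 of 17404 had an unadjusted p under 0.05. The F test's unadjusted p was 0.0589 for Upk1a, 0.0654 for Upk1b, 0.135 for Upk2, 0.596 for Upk3a and 0.418 for Upk3b. The order of group means was Krt5-Cre first and Krt5-Cre R172H last for Upk1a, Upk1b, Upk2 and Upk3b. Groups next to each other in this order overlapped, except Krt5-Cre with Upk2-Cre R270H for Upk1a. For that gene Trp53 het replicate 1 lay within the Krt5-Cre range. For Upk3a, Upk2-Cre R172H came first among BBN groups and Krt5-Cre R172H last, with all neighbours overlapping. Krt5-Cre R172H replicates 1 and 2 had the lowest shares of spots well above background of all arrays, 42.4% and 43.0%. Whether this bears on the low means of that group was not tested.

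The 6 comparisons between BBN groups called 0 of the uroplakins by limma, at which 578 to 1708 of all genes had an unadjusted p under 0.05. With the Krt5 driver, the Upk1a level of mutant bladders (7 arrays) minus that of Krt5-Cre bladders (2 arrays) was -2.64 (95% interval -4.64 to -0.64; unadjusted limma p 0.0128, adjusted 0.912). In this comparison 0.0115% of all genes were called. The other uroplakins differed there by -1.23 to -2.06, with adjusted p of 0.9997. With the Upk2 driver the differences between mutant and Upk2-Cre bladders ran from -0.42 for Upk2 to 1.17 for Upk3b, with 95% intervals that all span 0, and 0.00575% of all genes were called. The interaction term, which asks whether the mutation's effect differs between drivers, called 0 of the genes (Upk1a -2.57, 95% interval -5.46 to 0.33; 0% of all genes called).

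The level in R270H bladders (5 arrays) minus that in R172H bladders (7 arrays) was 1.46 for Upk1a (95% interval -0.02 to 2.94), 1.34 for Upk1b (-0.17 to 2.84) and 1.29 for Upk2 (-0.10 to 2.67). The adjusted p values from limma were 0.513, 0.562 and 0.540, and 0% of all genes were called. All 5 R270H arrays were read by scanner A and 5 of the 7 R172H arrays by scanner B. With scanner as a block the differences were 2.76, 2.71 and 1.78 (limma adjusted p 0.122, 0.123 and 0.323), where 6 of all genes were called lower and 11 higher. The deposited table gave 1 and 20. Upk3a differed by 0.12 with an interval of -2.78 to 3.01, which leaves large differences in either direction possible. Between Krt5-driven and Upk2-driven mutants the Upk1b difference was -1.28 (95% interval -2.79 to 0.22; limma adjusted p 0.886), where 0.00575% of all genes were called. Trp53 het bladders differed from the 4 Cre control bladders by -1.31 in Upk1a (-3.21 to 0.59) and by 1.03 in Upk3a (-2.69 to 4.75), where 0% of all genes were called. The intervals leave room for differences of several-fold between BBN groups.

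Within BBN bladders the levels of most uroplakins were correlated from array to array. How often pairs of other genes are correlated on these arrays was not tested. Over the 19 BBN arrays, 8 of 10 pairs had a Pearson correlation with an adjusted permutation p at or under 0.05. The highest were Upk1b with Upk2 (r = 0.828, Spearman rho = 0.639) and Upk1a with Upk1b (r = 0.823, rho = 0.737), with an adjusted permutation p of 0.0001 for both Pearson values and of 0.00880 and 0.00265 for the rank values. Upk1a with Upk3b had r = 0.751 and rho = 0.788 (adjusted permutation p 0.000600 and 0.000800). Upk3a was the least tied to the rest: with Upk2 r was 0.313 (rho 0.198; adjusted permutation p 0.198 and 0.414), and with Upk1b, its own partner, 0.367 (rho 0.361; 0.130 and 0.143). Upk3a with Upk1a had r = 0.574 (rho 0.539; 0.0160 and 0.0272) and with Upk3b r = 0.486 (rho 0.405; 0.0421 and 0.108).

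Leaving out the 2 arrays farthest from the median of the first gene gave r of 0.659 for Upk1b with Upk2, 0.749 for Upk1a with Upk1b and 0.682 for Upk1a with Upk3b. Within scanner A (11 arrays) these were 0.907, 0.830 and 0.742, and within scanner B (8 arrays) 0.631, 0.789 and 0.724. After the mean of each group was taken off, they were 0.7498, 0.728 and 0.701. Relative to the 10 epithelial genes of each array, 8 pairs were again called, with r of 0.851 for Upk1b with Upk2. The same mean is taken off both genes of a pair, which can raise r by itself, so this is no independent check. Values of Upk3a and Upk3b below background enter these correlations as measured. With such values raised to the array's limit 7 of 10 pairs were called: r fell to 0.560 for Upk1a with Upk3b and to 0.556 for Upk2 with Upk3b, and Upk3a with Upk3b (0.328, adjusted permutation p 0.189) was no longer called. The remaining 3 called pairs were Upk1a with Upk2 (r = 0.728), Upk1b with Upk3b (0.666) and Upk2 with Upk3b (0.652; rho 0.539), and without the 2 farthest arrays these were 0.579, 0.744 and 0.404.

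**Figure D3:**
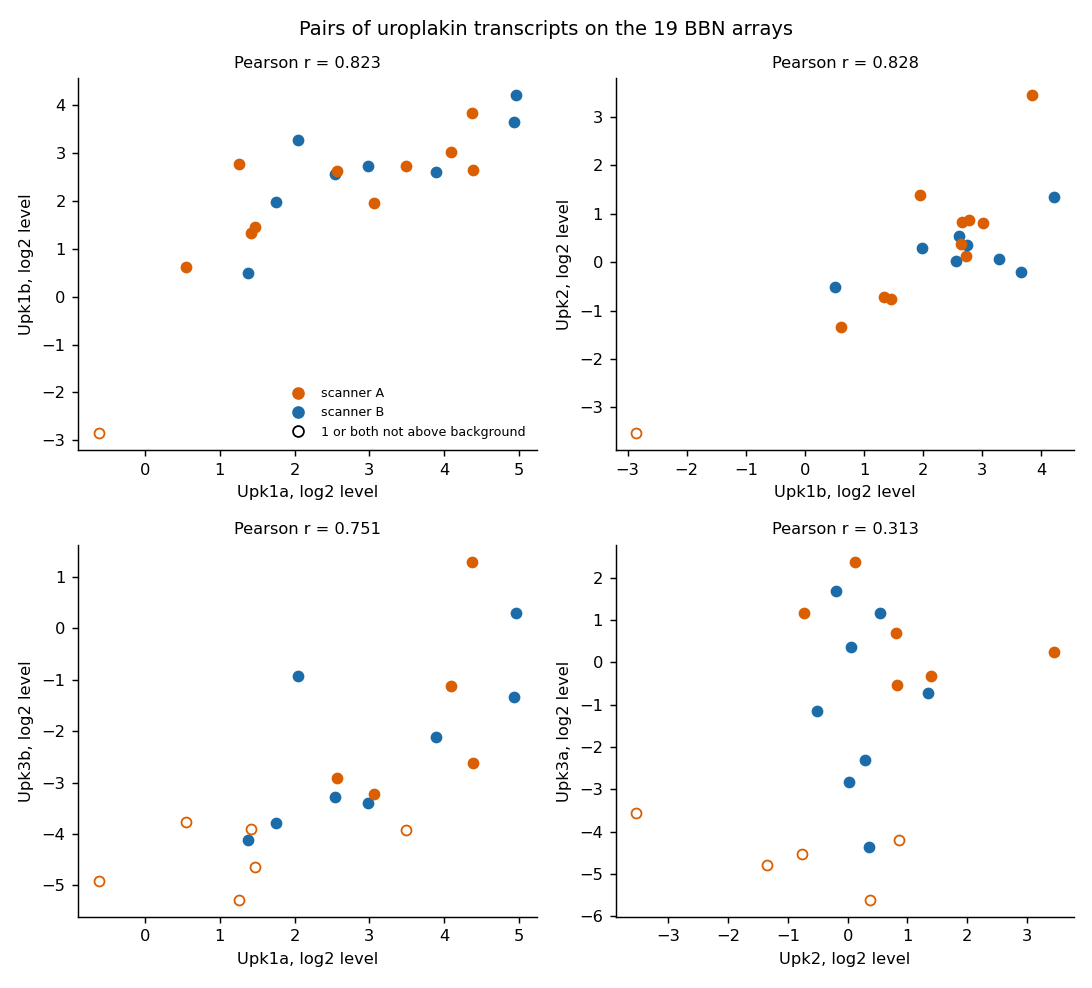
Log2 levels of 4 pairs of uroplakins on the 19 BBN arrays, coloured by scanner; open circles have at least 1 of the genes not well above background. Upk1a with Upk1b and Upk1b with Upk2 lie along a line (r = 0.823 and 0.828), while Upk2 with Upk3a is scattered (r = 0.313).

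The genes whose levels were most like each uroplakin's over the 19 BBN arrays were taken from 13754 named genes measured on 10 or more of them, and are given as a description. For Upk1a they were Bcl2l14 (r = 0.834), Fam124a (0.824) and Paqr5 (0.823). For Upk1b they were Naip6 (0.821), Bend5 (0.770) and Bcl2l14 (0.761). For Upk2 they were Septin1 (0.822), Tgfb1i1 (0.802) and Zfp580 (0.794). For Upk3a they were Ldhb (0.782), Reg3g (0.762) and Tspan13 (0.738), the last a tetraspanin. For Upk3b they were Cd55b (0.914), C4a (0.914) and Rspo1 (0.852).

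Rspo1, a secreted Wnt agonist that is also on the mesothelium list, had a fitted difference of 3.52 between BBN and normal bladders, with 1 of the 3 normal arrays well above background. Over all 22 arrays, where the normal arrays set most of the spread, the mean of the 6 genes was most like Paqr5 (r = 0.979), Acer2 (0.970), Gstm4 (0.963), Bcl2l14 (0.963) and Fmo5 (0.957). Their log2 differences between BBN and normal bladders were -5.38, -6.40, -6.52, -3.69 and -6.55. A ranking by such a mean favours genes that fell, so these falls are no separate result. The mean also includes Snx31, which was not well above background on any BBN array.

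Of 11 genes of the transport of uroplakin vesicles to the surface, 5 were lower and 1 higher in BBN bladders, with a list median of -0.63 against 0.13 over all genes. Over all genes 19% were lower and 23.7% higher, and the counts of this list and those that follow are to be read against these shares. Sytl2, a synaptotagmin-like partner of Rab27, fell by 4.64 (SE 0.634, adjusted p 3.46e-05). Rab27b, a GTPase of the fusiform vesicles, fell by 2.75 (SE 0.413, adjusted p 8.33e-05), and Myo5b, a vesicle motor, by 1.44 (SE 0.398, adjusted p 0.00844). Rab8a, a GTPase of apical transport, rose by 1.48 (SE 0.248, adjusted p 0.000220).

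Other umbrella cell and luminal genes were mixed, with 7 of 16 lower, 2 higher and a median of -1.02. Acer2, a ceramidase, fell by 6.40 (adjusted p 7.09e-07) and Krt18, a simple keratin, by 2.38 (0.00209), and Tjp3, a tight junction protein, by 0.88 (0.00216). Cldn3, another tight junction protein, went the other way: it was not well above background on the 3 normal arrays and was at least 169-fold brighter with BBN. Cldn3 passed the filter through BBN arrays alone, so its rise follows in part from the filter. Krt20, a keratin of umbrella cells named here after its values were seen, was at -1.28 and not called (adjusted p 0.127).

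Of 12 transcription factors of the urothelium, 7 were lower and 3 higher, with a median of -0.93. Pparg, a nuclear receptor of luminal differentiation, fell by 2.77 (SE 0.528, adjusted p 0.000632). Its partner Rxra fell by 0.84 (SE 0.197, adjusted p 0.00280) and Foxa1, a forkhead factor, by 1.80 (SE 0.364, adjusted p 0.00101). Ehf, an ETS factor, rose by 1.51 (SE 0.236, adjusted p 0.000116).

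Other members of the same families moved in both directions. Of 24 other tetraspanins 10 were lower and 3 higher, with a median of -0.29. Tspan13, Tspan6 and Tspan7 had differences of -3.82, -2.27 and -2.77, while Tspan1 rose by 4.68 (adjusted p 9.42e-07). Of 18 other sorting nexins 5 were lower and 2 higher, near the share of lower genes over the whole array, with a median of -0.16. Snx30 fell by 1.98 (adjusted p 8.85e-05) and Snx18 by 0.97 (0.00339), while Snx20 rose by 1.28 (0.00223) and Snx9 by 1.09 (0.0150).

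Markers of several cell types moved with the same comparison. Of 10 genes of epithelial cells in general, 1 was lower and 2 higher: Spint1 fell by 0.69, and St14 and Esrp1 rose by 1.08 and 0.83. Their mean level was 2.87 to 3.05 on the normal arrays and 2.71 to 3.55 on the BBN arrays, and relative to it the uroplakins differed by -5.52 (Upk1a), -4.61 (Upk1b), -6.055 (Upk2), -9.26 (Upk3a) and -5.83 (Upk3b). Of 16 basal and squamous genes 14 were higher and 1 lower, and their mean level was -1.68 to -1.37 on normal arrays and 2.31 to 6.27 on BBN arrays. Of the 14, 4 were not well above background on any normal array. These 4 passed the filter through BBN arrays alone, so their rise follows in part from the filter. Among the 14, Krt6a, Krt17 and Krt14 rose by 13.00, 11.62 and 7.97, and Dsg3, a desmosomal cadherin not well above background on the normal arrays, was at least 77.7-fold higher.

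All 10 smooth muscle genes were higher in BBN bladders, among them Cnn1 at 3.75 and Des at 3.76, and their mean level was -0.28 to 0.91 on normal arrays and 0.56 to 5.12 on BBN arrays. Of 8 fibroblast genes 6 were lower and 0 higher, led by Fbln1 (-2.62) and Pi16 (-3.40), with mean levels of 3.74 to 4.37 and 0.05 to 4.14. Of 10 leukocyte genes 4 were higher, led by S100a9 at 8.39, with mean levels of -0.58 to -0.37 and 0.30 to 2.32. Of 7 endothelial genes 1 was lower, with mean levels of 0.10 to 0.17 and -2.32 to 2.16. The epithelial reference above is a change of scale and does not give the share of umbrella cells. The part of any of these cell types in the uroplakin result was not tested.

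The mesothelium list holds Upk3b and Upk1b, both of which fell. Of its other 7 genes 5 were higher and 1 lower in BBN bladders, with mean levels of -5.68 to -4.91 on normal and -2.45 to 0.65 on BBN arrays. Of the 5 higher genes, 4 were not well above background on any normal array. These 4 passed the filter through BBN arrays alone, so their rise follows in part from the filter. The normal means of the list include their values below background. Msln, Bnc1 and Wt1 were not well above background on the 3 normal arrays and were at least 871-fold, 32.7-fold and 11.5-fold higher in BBN bladders. Lrrn4 was likewise not above background there, and Rspo1 was on 1 of the 3. Nkain4 and Gpm6a were above background on all 3 normal arrays, as Upk3b was: Nkain4 fell by 2.65 (limma adjusted p 0.000957), and Gpm6a was at -0.19 and not called. The part of mesothelium in the Upk3b result was not tested.

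**Figure D4:**
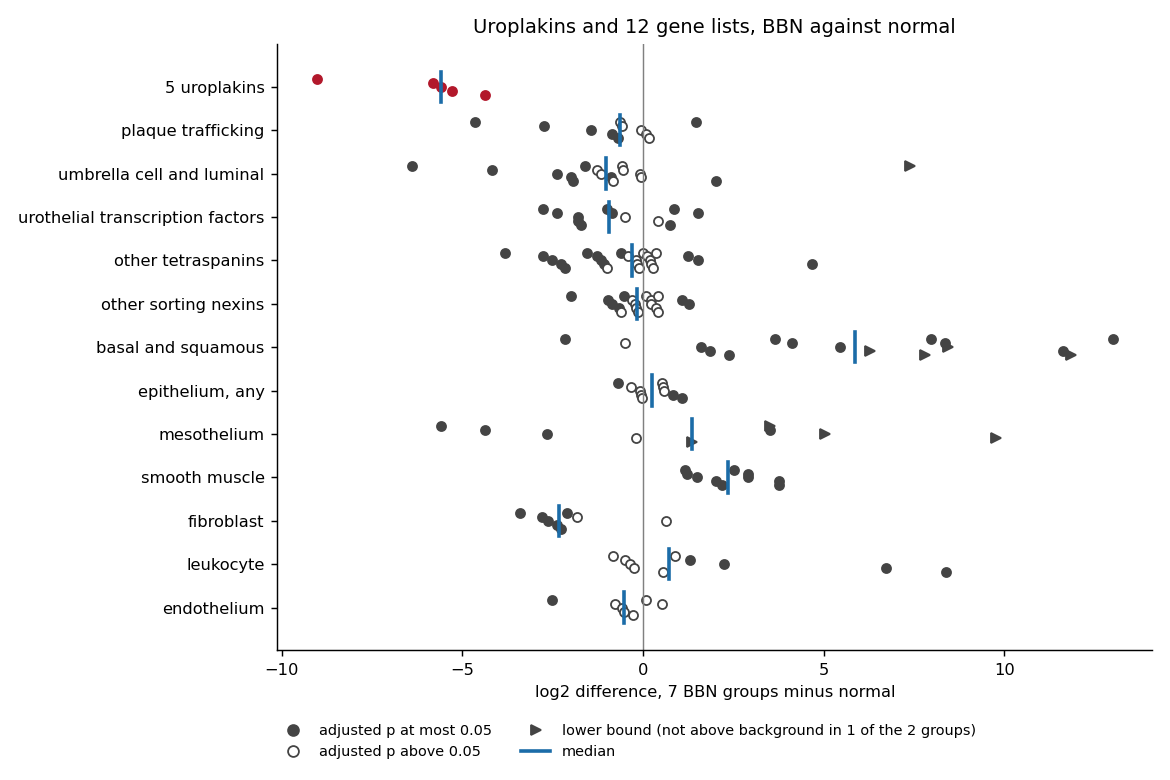
Log2 difference of the 7 BBN groups from normal (horizontal axis) for the 5 uroplakins and the genes of 12 lists; filled marks were called, open marks were not, triangles are lower bounds for genes not well above background in 1 of the groups compared, and blue lines are medians with those genes at their bound. The uroplakins lie between -9.02 and -4.37, and the median is 0.24 for the epithelial list and 5.87 for the basal and squamous list.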

How the data were processed

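RNA of 22 mouse bladders was read on 1-colour (Cy3) Agilent arrays. Spot intensities were deposited by the authors as background-subtracted processed signals of Feature Extraction 11.0.1.1, per the file headers, while version 9.1 and limma (no version) are named per the submitters' processing notes. The deposited normalized table holds log2 values from the authors, whose scaling is not given in the sources used here; it served as an alternative.

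Here log2 processed signals were set scaled to each array's 75th percentile, control and flagged spots left out. Of 56605 probes 32994 carried 1 symbol (RefSeq, GRCm38.p6), 0 several and 23611 none; the brightest probe stood for a gene, and Upk1b alone of the 6 genes has 2. Genes well above background on at least 2 arrays were fitted with limma 3.58.1 (R 4.3.3) as 8 group means, groups of a side weighted alike, and p-values were adjusted over 17404 genes at 0.05. Pairs and correlations (100000 permutations, 10 pairs, Snx31 left out) used Python 3.11.15, numpy 2.4.6, pandas 2.3.3 and scipy 1.17.1, weighting arrays alike; figures used matplotlib 3.10.9. The limma fit and the exact pair test were run on simulated data with planted changes. In the pair check the planted shift exceeded those found here, and the spread was alike in both groups, unlike in these data. Arrays give no counts, so their number limits the precision.

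The genes named are the 6 members, up to 4 of smallest p in each of 12 lists, the 3 genes most like each uroplakin among BBN arrays and the 5 most like the mean of the 6. Krt20, Des, Nkain4, Gpm6a, Lrrn4 and the genes next to the members on the chromosome, Upk3bl among them, were named after their values were seen. The members and lists were chosen with earlier results of these data known. Other settings were quantile scaling, normexp correction (offset 50), the authors' table, an open and a strict filter (11104 genes detected everywhere), probe means, fits on the compared arrays alone, array weights, code-sharing arrays averaged, each array left out, and blocks by replicate number, scanner or slide. Added after seeing the data were scanner B alone, levels relative to epithelial genes, BBN arrays with sex-marker mismatches left out and values raised to the background limit.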

Additional observations from a re-analysis of the deposited data

How the results depend on the processing

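In BBN against normal all 5 uroplakins kept their direction and call under every alternative that tested them: Upk1a lay between -5.75 and -4.24, Upk1b between -4.74 and -3.28, Upk2 between -6.14 and -5.42, Upk3a between -9.55 and -8.07 and Upk3b between -5.87 and -4.34. The count of the 5 uroplakins called fell to 1 in that comparison, and to 1 in each of the 7 single-group comparisons, when genes had to be above background on all arrays, since Upk1a alone can then be tested. In Krt5-Cre the count was 2 without a filter and 2 with scanner as a block, in Krt5-Cre R270H it was 3 with scanner as a block, in Upk2-Cre R270H it was 2 with scanner and 3 with slide as a block, and in Upk2-Cre R172H it was 3 without the arrays of mismatched sex markers. With each array left out in turn it ranged from 1 to 5 in Krt5-Cre, from 1 to 5 in Upk2-Cre R270H and from 4 to 5 in Upk2-Cre, while 0 to 5 of the pairs with unequal change and 6 to 8 of the correlations were called. Over all genes, the number lower in BBN bladders was 2061 under the strict filter and 5654 with array weights, against 3313. Against normal a fixed slide block has no estimable value, since slide 4 holds the normal arrays alone, and slide was taken as a random block. Between BBN groups a fixed slide block called 57 genes lower and 3 higher in Krt5 mutant against Krt5-Cre, 51 and 4 in Upk2 mutant against Upk2-Cre, 16 and 17 in R270H against R172H and 50 and 4 in Trp53 het against Cre controls, but 0 of the uroplakins.

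Reversals of sign occurred in comparisons between BBN groups, in differences that were not called. In Krt5 mutant against Krt5-Cre, the deposited table gave 0.30 for Upk3a and 0.21 for Upk3b, and a slide block 0.29 for Upk3a. In Upk2 mutant against Upk2-Cre, Upk1a was 0.012 with normexp, 0.099 with quantile normalization, 0.083 in the deposited table, 0.66 with a slide block and 0.34 relative to epithelial genes; Upk2 was 0.83 with a slide block. Without the arrays of mismatched sex markers, Upk1b was -0.33 and Upk2 0.090 there, and Upk1b was 0.13 in Trp53 het against Cre controls. Upk3b in Krt5 against Upk2 mutants was 0.012 with normexp and 1.07 in the deposited table, and in Trp53 het against Cre controls 1.03 in that table. Array weights gave -1.10 for Upk3a in R270H against R172H, and a scanner block 0.0055 for Upk1b in Trp53 het against Cre controls. The causes were not tested.

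With each array left out, Upk2 mutant against Upk2-Cre ranged from -0.45 to 0.31 for Upk1a, from -0.013 to 0.78 for Upk1b, from -0.94 to 0.094 for Upk2 and from -1.04 to 2.998 for Upk3a. Krt5 against Upk2 mutants ranged from -2.08 to 1.07 for Upk3a. R270H against R172H ranged from -1.46 to 1.69 for Upk3a and from -0.0012 to 1.48 for Upk3b. Trp53 het against Cre controls ranged from -0.83 to 0.32 for Upk1b and from -0.034 to 2.90 for Upk3a.

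Replicate numbers did not pair the samples: deviations of same-numbered arrays of different groups had correlations from -0.478 to 0.556, with a median of 0.028. With the replicate block the differences from normal were -5.47 for Upk1a, -4.58 for Upk1b, -5.94 for Upk2, -9.14 for Upk3a and -5.81 for Upk3b, and Upk1a in Upk2 mutant against Upk2-Cre was 0.067.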

Other observations

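Upk3bl, the uroplakin-3b-like gene that neighbours Upk3b on chromosome 5, went the other way from Upk3b and was chosen after its values were seen. It was 2.77 higher in BBN than in normal bladders on the log2 scale (SE 0.52, limma adjusted p 0.000556), and a second probe gave 2.97. It was well above background on all 22 arrays. Dtx2, the neighbour of Upk3b on its other side, was at 0.15 and not called (limma adjusted p 0.597).

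Of the 11 neighbouring genes with a value, 5 were called lower and 2 higher. Over all 17404 genes tested 19% were lower and 23.7% higher, and the counts were not tested against these shares. Fam118a, beside Upk3a, was at -2.04 (limma adjusted p 0.000251), Zbtb32, beside Upk1a, at -1.56 (0.00374), B4galt4, beside Upk1b, at -1.85 (0.0185), Foxr1, beside Upk2, at 1.32 (0.0323) and Ankrd46, beside Snx31, at -1.45 (6.26e-05), while Bcl9l, beside Upk2, was at -0.13 (0.591) and Cox6b1, on the other side of Upk1a, at 0.50 (0.0562).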
